A study of Arabidopsis thaliana with 24 samples.

Results

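The genes described here are 33 nuclear genes of Arabidopsis thaliana for subunits of the photosynthetic electron transport chain. They were taken by gene ID from a table of 33602 genes, and comprise 12 subunits of photosystem I, 11 of photosystem II, 7 genes of the cytochrome b6f complex and the mobile carriers with their reductase, and 3 subunits of the chloroplast ATP synthase. Antenna genes and plastid-encoded subunits were not among them. RNA came from whole seedlings of IP-Svi-0, a natural accession labelled as early flowering, and of Col-0, the reference accession. Seedlings grew on half-strength MS medium, and the labels name no transgene, mutation or chemical treatment in either accession. They were kept at 10, 16, 23 or 27 °C and collected 23, 12, 8 or 7 days after transfer, with 3 libraries for each of the 8 groups. Temperature and days of growth therefore cannot be told apart. The stated purpose of the series was to find genes behind early flowering that differ between these accessions.

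In oxygenic photosynthesis, light drives electrons from water through photosystem II, plastoquinone, the cytochrome b6f complex and plastocyanin to photosystem I, and from there through ferredoxin to ferredoxin-NADP reductase, which forms NADPH. Protons released on the way drive ATP synthase. Core proteins that carry most cofactors are encoded in the plastid, whereas many peripheral subunits are encoded in the nucleus and imported. Cold slows the enzymes that use ATP and NADPH, and excess excitation is dissipated as heat with the help of PSBS.

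Each library had between 22215651 and 24308874 reads. Annotated genes took 1.41 to 3.61% of them, or 338784 to 870567 counts. The kit was strand-specific, but the sources used here do not state how strand was treated in counting, so a gene's counts may belong to its opposite strand. Values are counts scaled to a common library total by TMM (CPM) and describe what was counted at a locus. The genome used for both accessions was that of Col-0, so that IP-Svi-0 reads may be lost where its sequence differs. Reads that did not align uniquely made up 2.67 to 35.8% of a library and were most frequent in Col-0 at 16 °C (22.9 to 35.8%). In whole seedlings, fewer cells of a type and less RNA per cell cannot be told apart. The labels do not say whether the 3 libraries of a group came from separate cultures, so p-values measure the spread between these libraries, which may be technical.

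All 33 members had enough counts to be tested, with 15 to 3772 counts per gene and library. Of these, 24 had exons free of any opposite-strand exon, and 9 did not. The overlap spanned 693 bp of exon at PSAH1 (opposite AT3G16130), 479 bp at PSAG (AT1G55673), 272 bp at PSAE1 (AT4G28755 and AT4G28740), 191 bp at FNR1 (AT5G66180) and 174 bp at PSAH2 (AT1G52240). It was shorter at PSAE2 (63 bp, AT2G20270), PSBR (51 bp, AT1G79050), PSBP1 (40 bp, AT1G06690) and PSAN (39 bp, AT5G64030). Counts at these 9 genes cannot be assigned to a strand and are uncertain. At the other 24 members counts may likewise come from the opposite strand, because the treatment of strand is not stated for any gene. Over all libraries, overlap-free genes held 34.7 to 52.8% of the nuclear counts. Which strand was counted was not tested. Per kb of exon, the mean level over all 24 libraries was highest at PSBR with 3706 CPM per kb, followed by PSBO1 with 1686, PSBTN with 1334, PETE2 with 1135 and PSBP1 with 1027 CPM per kb. It was lowest at PETE1 with 71.8 CPM per kb, followed by PSAD2 with 168 and ATPC1 with 199 CPM per kb.

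For 8 subunits both copies were members, and 4 of these pairs are shown by the 200 bases before their annotated start, chosen after their values were seen, since their copies had unlike patterns across the groups. The sequences were read 5′ to 3′ on the strand of the gene from RefSeq's TAIR10.1. Capitals mark a G-box (CACGTG) or an I-box (GATAAG), searched on both strands.
PSAD1 (chr4:1230165-1230364, minus strand): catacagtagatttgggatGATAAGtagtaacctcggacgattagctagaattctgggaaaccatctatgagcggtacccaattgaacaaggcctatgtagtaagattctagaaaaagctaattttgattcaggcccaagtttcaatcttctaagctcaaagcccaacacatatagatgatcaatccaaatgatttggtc
PSAD2 (chr1:754263-754462, minus strand): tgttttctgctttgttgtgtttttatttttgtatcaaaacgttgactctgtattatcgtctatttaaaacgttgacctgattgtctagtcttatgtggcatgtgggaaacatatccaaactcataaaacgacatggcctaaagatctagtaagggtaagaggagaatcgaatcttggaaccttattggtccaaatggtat
PSBQ1 (chr4:11334152-11334351, plus strand): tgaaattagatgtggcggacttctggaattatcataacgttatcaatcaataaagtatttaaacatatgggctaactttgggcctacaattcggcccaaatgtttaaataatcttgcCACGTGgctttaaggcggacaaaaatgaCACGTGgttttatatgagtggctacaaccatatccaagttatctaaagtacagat
PSBQ2 (chr4:2673244-2673443, minus strand): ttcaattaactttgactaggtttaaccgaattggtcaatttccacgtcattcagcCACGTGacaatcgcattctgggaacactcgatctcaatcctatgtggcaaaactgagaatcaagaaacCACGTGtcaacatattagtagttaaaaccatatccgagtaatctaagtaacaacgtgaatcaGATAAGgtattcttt
FD1 (chr1:3663987-3664186, plus strand): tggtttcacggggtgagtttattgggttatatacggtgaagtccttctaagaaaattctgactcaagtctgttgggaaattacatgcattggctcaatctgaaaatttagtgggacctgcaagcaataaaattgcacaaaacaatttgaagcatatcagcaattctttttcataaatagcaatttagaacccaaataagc
FD2 (chr1:22444107-22444306, plus strand): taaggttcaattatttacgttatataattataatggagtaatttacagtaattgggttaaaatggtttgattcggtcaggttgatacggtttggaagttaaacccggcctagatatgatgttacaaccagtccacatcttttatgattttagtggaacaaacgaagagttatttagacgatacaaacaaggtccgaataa
FNR1 (chr5:26453200-26453399, minus strand): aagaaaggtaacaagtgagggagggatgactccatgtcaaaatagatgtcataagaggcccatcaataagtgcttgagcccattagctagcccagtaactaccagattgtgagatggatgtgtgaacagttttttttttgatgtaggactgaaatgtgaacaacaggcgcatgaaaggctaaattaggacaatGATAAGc
FNR2 (chr1:6942425-6942624, plus strand): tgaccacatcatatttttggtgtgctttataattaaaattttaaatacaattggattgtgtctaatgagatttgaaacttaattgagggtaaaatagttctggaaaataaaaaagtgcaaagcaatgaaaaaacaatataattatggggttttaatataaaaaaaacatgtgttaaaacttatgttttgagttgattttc
PSAF (chr1:11216142-11216341, minus strand): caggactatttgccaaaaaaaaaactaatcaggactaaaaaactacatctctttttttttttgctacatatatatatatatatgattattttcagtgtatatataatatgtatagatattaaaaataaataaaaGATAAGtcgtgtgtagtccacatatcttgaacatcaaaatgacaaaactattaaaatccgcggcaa

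PSAF, which has no second copy among the members, is shown for its difference between the accessions. In this window a G-box stood before 6 of 33 members (18.2%), against 5.64% of 27443 protein-coding genes, namely before PSAE2, PSAH2, PSBQ1, PSBQ2, PSBTN and ATPD. An I-box stood before 9 members (27.3%), against 9.97% of all genes, namely before PSAD1, PSAF, PSAH2, PSAK, PSBQ2, PETC, PETE2, FNR1 and ATPG. The evening element (AAAATATCT) stood before 0 of 33 members, against 1.92% of all genes. A match is a run of letters, and binding was not measured.

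Across the 8 groups, the highest mean was found in IP-Svi-0 at 10 °C for 28 of the 33 members, and the lowest in IP-Svi-0 at 27 °C for 22. The matching shares over all genes were not computed, so these counts stand without a base rate. The summed level of all members was 37678 ± 4177 CPM in IP-Svi-0 at 10 °C, 24221 ± 2508 at 16 °C, 19666 ± 4308 at 23 °C and 16607 ± 381 CPM at 27 °C (SD, n = 3 each). In Col-0 it was 25766 ± 1904 CPM at 10 °C, 20596 ± 3285 at 16 °C, 21057 ± 867 at 23 °C and 19312 ± 1228 CPM at 27 °C. All 3 IP-Svi-0 libraries at 10 °C lay above every other library in this sum. Before TMM scaling, the members took 2.09 ± 0.277% of gene counts in Col-0 at 10 °C, against 2.13 ± 0.153% at 23 °C. In IP-Svi-0 they took 3.71 ± 0.587% at 10 °C, against 1.83 ± 0.345% at 23 °C. The mean TMM factor in Col-0 was 0.85 at 10 °C, against 1.07 at 23 °C, so the higher Col-0 sum at 10 °C depends on the scaling. The members whose highest means lay in other groups were PSBR, PETE1, FD1, FNR1 and FNR2.

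**Figure D1:**
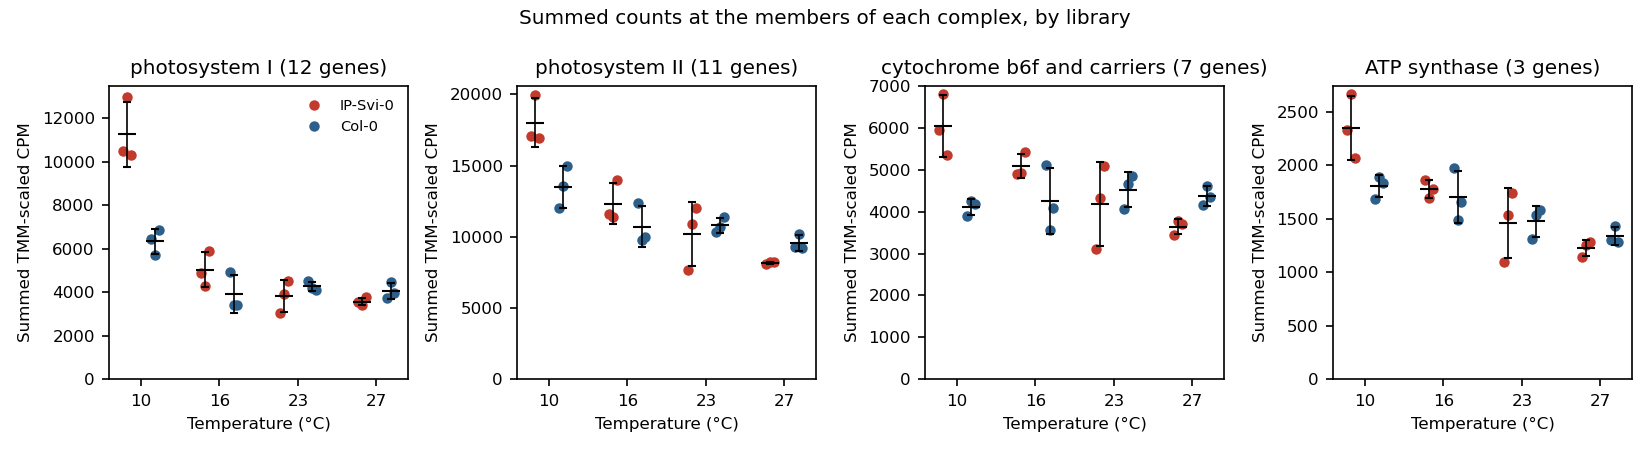
Summed level (TMM-scaled CPM, vertical axis) of the members of each complex at 4 temperatures (°C, horizontal axis), with IP-Svi-0 left and Col-0 right at each temperature. Points are libraries and black bars the mean and SD of 3. For photosystem I the 3 IP-Svi-0 libraries at 10 °C had 10327 to 12997 CPM, against 5730.1 to 6858 CPM in Col-0.

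In IP-Svi-0, counts at 23 of the 33 members were higher at 10 than at 23 °C and at 0 lower, where 5.77% of 10097 genes tested were called higher and 9.98% lower. Calls rest on an adjusted p under 0.05 in edgeR's quasi-likelihood test with Benjamini-Hochberg adjustment over all genes tested. At an unadjusted p under 0.05, 27 members were higher and 0 lower, and DESeq2 called 26 higher and 0 lower. Here and below, shares of all genes refer to edgeR's adjusted calls in the main fit. For unadjusted p, DESeq2 and the other settings no share over all genes is given, so those member counts stand without a base rate. Nor is a share given for groups whose libraries did not overlap, so such separations also stand without a base rate. The median log2 difference was 1.04 for the members, against -0.02 for all genes. All 12 photosystem I subunits passed, 8 of 11 photosystem II subunits, 2 of 7 genes of the carriers and 1 of 3 ATP synthase subunits. Without IP-Svi-0 23 °C replicate 1, whose summed member level was 14939.5 CPM against 20686 and 23373 CPM in the other 23 °C libraries, 16 members passed.

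In Col-0 the same comparison called 3 members higher and 1 lower, where 3.83% of genes were called higher and 2.85% lower. PSBQ2 (log2 difference of 1.3 with SE 0.26, adjusted p = 0.000875), PSAN (log2 difference of 0.81 with SE 0.25, adjusted p = 0.0402) and PSAE2 (log2 difference of 0.79 with SE 0.25, adjusted p = 0.0461) were higher at 10 °C, and FD1 was lower (log2 difference of -2.44 with SE 0.31, adjusted p = 4.8e-07). At an unadjusted p under 0.05, 11 members were higher and 1 lower, and DESeq2 called 4 higher and 1 lower. The median over members was 0.37, against -0.01 for all genes, and all 12 photosystem I subunits had a positive difference. These values rest on TMM scaling, and the unscaled share of gene counts at the members was 2.09% at 10 °C, against 2.13% at 23 °C. With the share of counts at genes without an overlap on the other strand as a covariate, 11 members were called higher and 1 lower. Leaving out any 1 of 8 libraries left 2 calls, with Col-0 10 °C replicates 2 and 3, all 3 Col-0 libraries at 23 °C, IP-Svi-0 10 °C replicates 1 and 3 and IP-Svi-0 27 °C replicate 2 each having this effect.

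**Figure D2:**
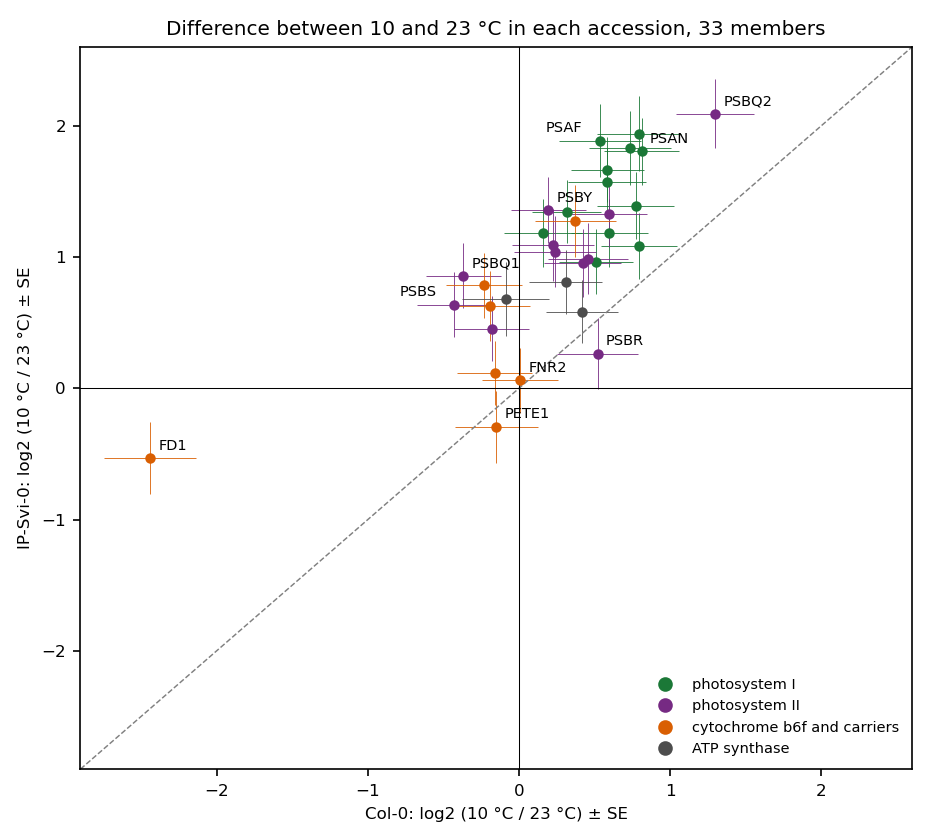
Log2 difference between 10 and 23 °C in IP-Svi-0 (vertical axis) and Col-0 (horizontal axis) for 33 members, coloured by complex, with bars of 1 SE. The dashed line marks equal differences, and 31 members lie above it, with FD1 farthest at -0.53 in IP-Svi-0, against -2.44 in Col-0.

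The difference between these responses, IP-Svi-0 minus Col-0, was called positive for 4 members and negative for 0, where 1.43% of genes were called positive and 4.02% negative. These were FD1 (log2 difference of 1.91 with SE 0.41, adjusted p = 0.008), PSAF (log2 difference of 1.35 with SE 0.38, adjusted p = 0.037), PSBQ1 (log2 difference of 1.22 with SE 0.35, adjusted p = 0.037) and PSBY (log2 difference of 1.16 with SE 0.35, adjusted p = 0.0454). The value was positive for 31 of 33 members, with a median of 0.80, against 0.03 for all genes. At an unadjusted p under 0.05, 19 members were positive and 0 negative, and DESeq2 called 16 positive and 0 negative, with no share over all genes given for either. The count of 4 fell to 1 with the overlap-free share as a covariate, under which PSAF (log2 difference 1.0, adjusted p = 0.246) and PSBQ1 (0.88, adjusted p = 0.268) did not pass, nor did PSBY (1.11, adjusted p = 0.115). PSBY also did not pass without a filter on low counts (1.28, adjusted p = 0.0674) or with at least 1 CPM in 3 libraries (1.32, adjusted p = 0.05). The count was 1 without Col-0 10 °C replicate 2 or 3, Col-0 23 °C replicate 1 or 2, any 1 IP-Svi-0 library at 10 °C other than replicate 3, or IP-Svi-0 23 °C replicate 1 or 2. There were 7 to 9 calls without Col-0 16 °C replicate 1 or 3, IP-Svi-0 10 °C replicate 3 or IP-Svi-0 16 °C replicate 1. Tested over all temperatures together, a difference in response was called for FD1 (adjusted p = 0.0133), 1 of 33 members, where 1.43% of genes were called, with 14 members at an unadjusted p under 0.05 and 14 called by DESeq2.

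Between 16 and 23 °C, PSAN was the 1 member called in IP-Svi-0 (log2 difference of 1.0 with SE 0.26, adjusted p = 0.0482), where 0.168% of genes were called higher and 0.624% lower. Another 5 members were higher at an unadjusted p under 0.05, and DESeq2 called 1. The PSAN call was lost in 16 of 24 fits that left out 1 library. In Col-0, 0 members were called at 16 °C, where 1.23% of genes were called in either direction. FD1 (-1.01, adjusted p = 0.061) and PSAD2 (-0.85, adjusted p = 0.0741) were lower in Col-0 at an unadjusted p under 0.05, and DESeq2 called these 2 lower. The difference between these responses was called for 0 members and 0% of genes, with 4 members positive at an unadjusted p under 0.05 and 0 called by DESeq2. Between 27 and 23 °C, edgeR called 0 members for IP-Svi-0, 0 for Col-0 and 0 for the difference of responses, where 0%, 0.109% and 0% of genes were called. At an unadjusted p under 0.05 the count was 0 in each of these 3 comparisons, as it was with DESeq2. The 23 °C libraries of an accession enter all of its temperature comparisons and the differences of responses.

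Between the accessions at 10 °C, counts at 13 of 33 members were higher in IP-Svi-0 and at 0 lower, where 9.59% of genes were called higher and 14.4% lower. The difference was positive for 31 members, with a median of 0.59, against 0.02 for all genes, and a range of -0.28 to 1.59. The calls comprised 5 of 12 photosystem I subunits, 5 of 11 photosystem II subunits, 3 of 7 genes of the carriers and 0 of 3 ATP synthase subunits. Among members without an overlap on the other strand 10 of 24 passed, and among those with one 3 of 9 (PSAE1, PSAG and PSBP1). At an unadjusted p under 0.05, 20 members were higher and 0 lower, and DESeq2 called 16 higher and 0 lower. Overlap-free genes held a share of the nuclear counts of 48.6 ± 4.69% in IP-Svi-0, against 39.1 ± 4.35% in Col-0 at 10 °C (SD, n = 3 each). With this share as a covariate, 7 members were called. PSAE1, PSAL, PSAO, PSBP1, PSBQ2 and FNR2 did not pass in that fit, with adjusted p from 0.0811 (PSAO) to 0.409 (PSAL). Leaving out any 1 of the Col-0 libraries at 10 °C left 7 calls, and without IP-Svi-0 10 °C replicate 1 or 2 there were 8 or 5.

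At 16 °C, PSAF alone was called higher in IP-Svi-0 (log2 difference of 0.97 with SE 0.28, adjusted p = 0.022) and 0 members lower, where 2.4% of genes were called higher and 5.82% lower. FNR2 came next (0.71, adjusted p = 0.0763), was higher at an unadjusted p under 0.05 and was among the 2 that DESeq2 called. PSAN, the third by adjusted p, did not pass (0.51, adjusted p = 0.237). The PSAF call was lost with the overlap-free share as a covariate (0.73, adjusted p = 0.058), in a fit of these 2 groups alone (0.99, adjusted p = 0.0925) and without Col-0 16 °C replicate 2 or 3 or IP-Svi-0 16 °C replicate 1 or 3. Without Col-0 16 °C replicate 1, 2 members were called.

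At 23 °C, 0 members were called higher in IP-Svi-0 and PSAD2 lower (log2 difference of -0.97 with SE 0.24, adjusted p = 0.00517), where 3.05% of genes were called higher and 4.88% lower. At 27 °C the count was again 0 higher and 1 lower, PSAD2 (log2 difference of -0.96 with SE 0.23, adjusted p = 0.00415), where 2.49% of genes were called higher and 5.56% lower. The medians over members were -0.16 at 23 °C and -0.17 at 27 °C, against 0.04 and 0.01 for all genes. At 23 °C, FNR2 (0.65, adjusted p = 0.115) was higher and PSAK (-0.62, adjusted p = 0.16) lower at an unadjusted p under 0.05, and DESeq2 called 1 member higher and 1 lower. At 27 °C, PSAK (-0.70, adjusted p = 0.101), FD2 (-0.65, adjusted p = 0.156) and FD1 (-0.60, adjusted p = 0.191) were lower at an unadjusted p under 0.05, 0 were higher, and DESeq2 called 2 lower and 0 higher. The PSAD2 call at 23 °C was lost without Col-0 23 °C replicate 2 or IP-Svi-0 23 °C replicate 1.

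For the mean of the 4 differences, 4 members were called higher in IP-Svi-0 and 1 lower, where 16% of genes were called higher and 16.7% lower. PSAF (log2 difference of 0.73 with SE 0.14, adjusted p = 5.73e-05), FNR2 (log2 difference of 0.59 with SE 0.12, adjusted p = 0.000302), PSBS (log2 difference of 0.40 with SE 0.12, adjusted p = 0.0123) and PSAG (log2 difference of 0.36 with SE 0.13, adjusted p = 0.0292) were higher, and PSAD2 was lower (log2 difference of -0.57 with SE 0.12, adjusted p = 0.000263). PSAG did not pass with the overlap-free share as a covariate (0.23, adjusted p = 0.118) or without any 1 of 9 libraries. Without Col-0 16 °C replicate 1, 8 members were called. The median over members was 0.12, against 0.02 for all genes.

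**Figure D3:**
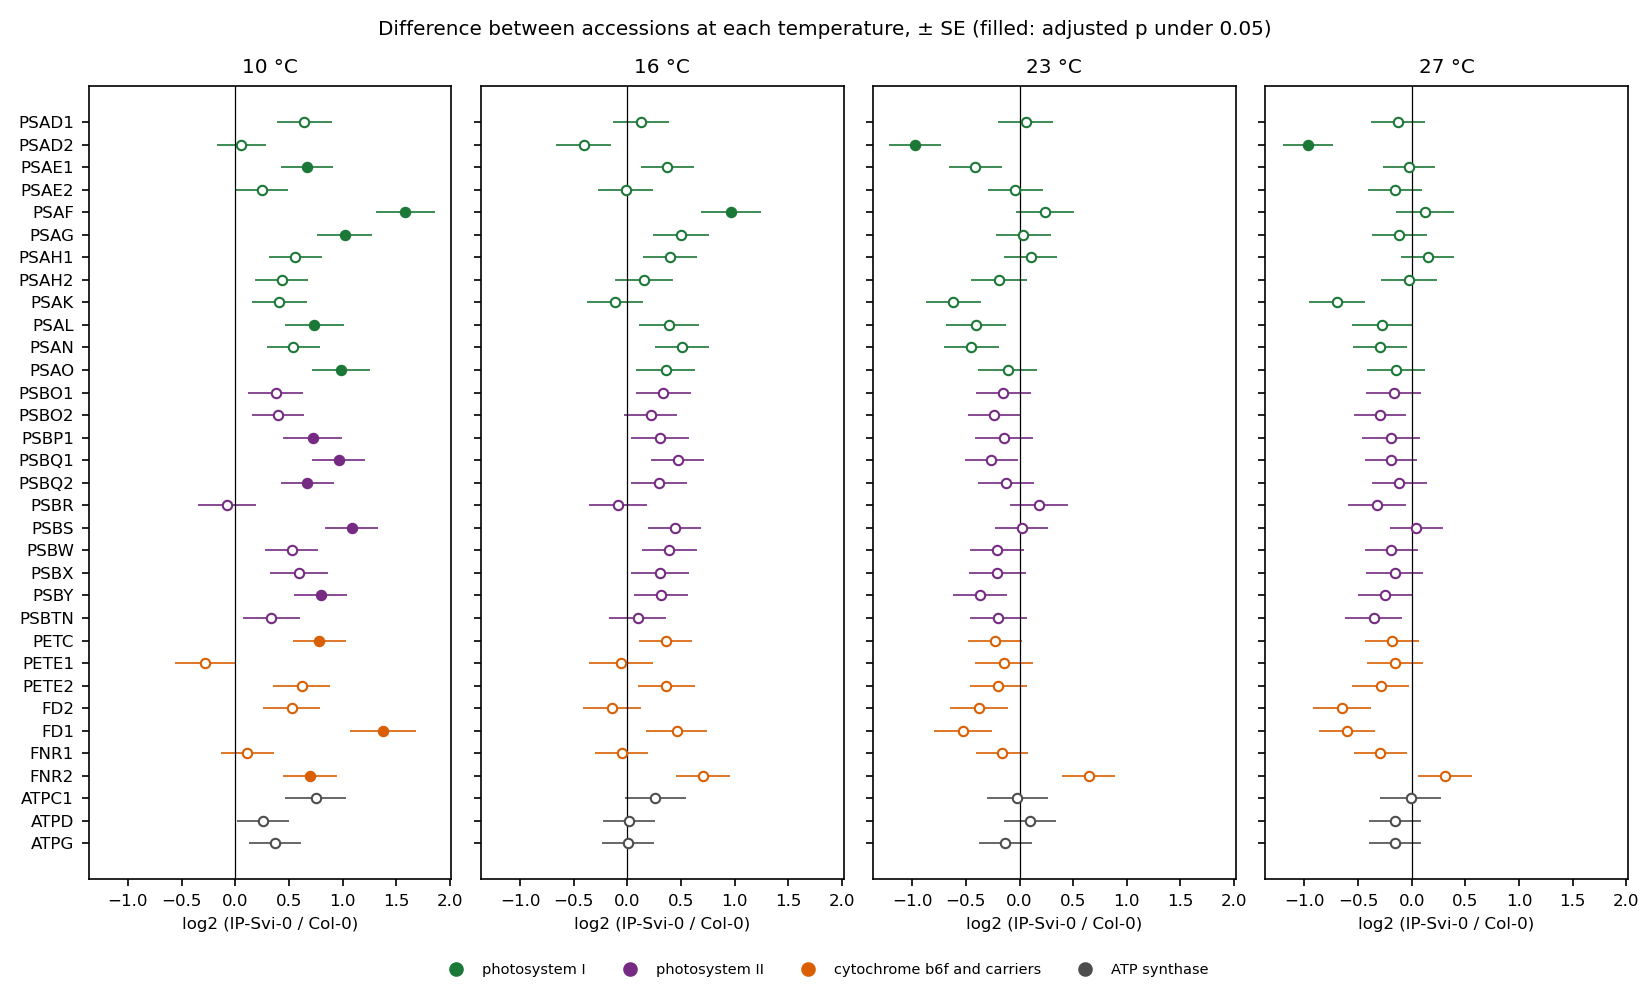
Log2 difference between IP-Svi-0 and Col-0 (horizontal axis, bars of 1 SE) for each member (vertical axis) at 10, 16, 23 and 27 °C, coloured by complex. Filled points had an adjusted p under 0.05, which 13 members had at 10 °C and 1 at each other temperature.

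Among photosystem I subunits, PSAF (AT1G31330, chromosome 1, 11214676 to 11216141, minus strand) docks plastocyanin on the lumen side. Counts at PSAF were 2279, 2723 and 2494 CPM in IP-Svi-0 at 10 °C, against 991, 654 and 844 CPM in Col-0, and at 16 °C 1201, 584 and 912 CPM in IP-Svi-0, against 522, 476 and 382 CPM in Col-0. For PSAF the 23 °C libraries had 696, 713 and 619 CPM in IP-Svi-0, against 728, 516 and 472 CPM in Col-0, and the 27 °C libraries 755, 605 and 650.1 CPM in IP-Svi-0, against 517, 745 and 578 CPM in Col-0. The IP-Svi-0 libraries stood above all Col-0 libraries at 10 and 16 °C and overlapped them at 23 and 27 °C. The difference at 10 °C was 3.00-fold (log2 difference of 1.59 with SE 0.28, adjusted p = 4.35e-05), and within IP-Svi-0 counts rose at 10 °C (1.89, adjusted p = 7.61e-06). In Col-0 the difference between 10 and 23 °C did not pass (0.54, adjusted p = 0.267).

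PSAD, on the stromal side, binds ferredoxin and is encoded by PSAD1 (AT4G02770, chromosome 4, 1229031 to 1230164, minus strand) and PSAD2 (AT1G03130, chromosome 1, 753307 to 754262, minus strand). Counts at PSAD1 were 1235, 1508 and 1227 CPM in IP-Svi-0 at 10 °C, against 890.3, 715 and 933 CPM in Col-0, and at 16 °C 539, 715 and 802 CPM in IP-Svi-0, against 814, 552 and 513 CPM in Col-0. For PSAD1 the 23 °C libraries had 447, 584 and 714 CPM in IP-Svi-0, against 542, 540.3 and 598 CPM in Col-0, and the 27 °C libraries 517, 550.5 and 528 CPM in IP-Svi-0, against 482, 604 and 659 CPM in Col-0. PSAD1 rose at 10 °C in IP-Svi-0 (log2 difference of 1.18 with SE 0.26, adjusted p = 0.00132), where its libraries lay above those of Col-0 without passing edgeR's test (0.64, adjusted p = 0.0608). DESeq2 called that difference between the accessions (0.65, adjusted p = 0.015). Counts at PSAD2 were 247, 288 and 225 CPM in IP-Svi-0 at 10 °C, against 253, 246 and 233 CPM in Col-0, and at 16 °C 74.7, 86 and 85.7 CPM in IP-Svi-0, against 122, 107 and 94.3 CPM in Col-0. For PSAD2 the 23 °C libraries had 80.5, 105 and 113 CPM in IP-Svi-0, against 160.5, 242 and 185 CPM in Col-0, and the 27 °C libraries 102, 97.2 and 109.9 CPM in IP-Svi-0, against 180.1, 194 and 234 CPM in Col-0. At 10 °C the PSAD2 libraries of the accessions overlapped, with a log2 difference of 0.06 (SE 0.23), whereas at 16, 23 and 27 °C every IP-Svi-0 library lay below every Col-0 library. Within IP-Svi-0, PSAD2 rose at 10 °C (log2 difference of 1.35 with SE 0.24, adjusted p = 0.00012).

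PSAE, a neighbour of PSAD that also takes part in binding ferredoxin, is encoded by PSAE1 (AT4G28750) and PSAE2 (AT2G20260), both overlapped on the other strand. Counts at PSAE1 were 811, 936 and 747 CPM in IP-Svi-0 at 10 °C, against 545, 436 and 586 CPM in Col-0, and at 16 °C 309, 357 and 482 CPM in IP-Svi-0, against 343, 302 and 238 CPM in Col-0. For PSAE1 the 23 °C libraries had 217, 248 and 322 CPM in IP-Svi-0, against 369.9, 366 and 311 CPM in Col-0, and the 27 °C libraries 299, 257 and 279 CPM in IP-Svi-0, against 283, 290.2 and 278 CPM in Col-0. PSAE1 was higher in IP-Svi-0 at 10 °C (log2 difference of 0.67 with SE 0.24, adjusted p = 0.0393) and overlapped between accessions at the other temperatures. The PSAE1 call was lost with at least 1 CPM in 3 libraries (0.77, adjusted p = 0.0517) and without a filter on low counts (0.74, adjusted p = 0.0752). It was also lost in a fit of these groups alone (0.69, adjusted p = 0.0543), with the overlap-free share as a covariate (0.49, adjusted p = 0.157) and in 5 of 24 fits that left out 1 library. Counts at PSAE2 were 320.1, 381 and 303 CPM in IP-Svi-0 at 10 °C, against 239.8, 295 and 314 CPM in Col-0, and at 16 °C 176, 198 and 229 CPM in IP-Svi-0, against 221, 189 and 197 CPM in Col-0. For PSAE2 the 23 °C libraries had 103, 171 and 199.7 CPM in IP-Svi-0, against 130.4, 169 and 189 CPM in Col-0, and the 27 °C libraries 128, 129.5 and 153 CPM in IP-Svi-0, against 143, 185 and 130.0 CPM in Col-0. PSAE2 was higher at 10 than at 23 °C in both accessions, with log2 differences of 1.08 in IP-Svi-0 (adjusted p = 0.00246) and 0.79 in Col-0 (adjusted p = 0.0461). In Col-0 the PSAE2 call was lost without a filter on low counts (0.76, adjusted p = 0.152), with at least 1 CPM in 3 libraries (0.70, adjusted p = 0.185) and in 19 of 24 fits that left out 1 library. Its libraries overlapped between accessions at every temperature.

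PSAG (AT1G55670) and PSAK (AT1G30380) are related membrane subunits at the antenna side of photosystem I. Counts at PSAG were 1093, 1467 and 939 CPM in IP-Svi-0 at 10 °C, against 617, 489 and 614 CPM in Col-0, and at 16 °C 607, 479 and 631 CPM in IP-Svi-0, against 528, 353 and 332 CPM in Col-0. For PSAG the 23 °C libraries had 319.9, 366 and 492 CPM in IP-Svi-0, against 391, 345 and 413 CPM in Col-0, and the 27 °C libraries 309, 343 and 413 CPM in IP-Svi-0, against 334, 435 and 388 CPM in Col-0. PSAG, overlapped over 479 bp, was higher in IP-Svi-0 at 10 °C, where the groups did not overlap (log2 difference of 1.02 with SE 0.26, adjusted p = 0.00328). Counts at PSAK were 833, 1005 and 798 CPM in IP-Svi-0 at 10 °C, against 649, 618 and 714 CPM in Col-0, and at 16 °C 324, 392 and 587 CPM in IP-Svi-0, against 582, 378 and 447 CPM in Col-0. For PSAK the 23 °C libraries had 262, 423 and 475 CPM in IP-Svi-0, against 658, 567 and 552 CPM in Col-0, and the 27 °C libraries 386, 361 and 364 CPM in IP-Svi-0, against 599, 632 and 571 CPM in Col-0. PSAK rose at 10 °C in IP-Svi-0 (log2 difference of 1.18 with SE 0.26, adjusted p = 0.00153), but in Col-0 its 10 °C libraries overlapped those at 23 °C (0.16, adjusted p = 0.797). At 23 and 27 °C all PSAK libraries of IP-Svi-0 lay below those of Col-0, without passing in the main fit. At 27 °C, PSAK was called lower by DESeq2 (-0.68, adjusted p = 0.0491) and with the overlap-free share as a covariate (-0.72, adjusted p = 0.0132). An edgeR fit of only the groups compared called it lower at 23 °C (-0.70, adjusted p = 0.0299). With the covariate it was also called lower for the mean over temperatures (-0.31, adjusted p = 0.0419).

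PSAH, PSAL and PSAO form the side of photosystem I where light-harvesting complex II docks during state transitions. Counts at PSAH1 were 581, 736 and 640.5 CPM in IP-Svi-0 at 10 °C, against 391, 408 and 528 CPM in Col-0, and at 16 °C 378, 348 and 449 CPM in IP-Svi-0, against 334, 252 and 308 CPM in Col-0. For PSAH1 the 23 °C libraries had 255, 308 and 439 CPM in IP-Svi-0, against 291, 289 and 353 CPM in Col-0, and the 27 °C libraries 228, 266 and 262 CPM in IP-Svi-0, against 195, 266 and 220.4 CPM in Col-0. PSAH1 (AT3G16140), overlapped over 53.3% of its exon bases against 61.4% at PSAG, rose at 10 °C in IP-Svi-0 (log2 difference of 0.97 with SE 0.25, adjusted p = 0.00563) and lay higher there than in Col-0 without passing edgeR's test (0.56, adjusted p = 0.0898). DESeq2 called PSAH1 higher in IP-Svi-0 than in Col-0 at 10 °C (0.57, adjusted p = 0.0437). Counts at PSAH2 were 289.9, 344 and 243 CPM in IP-Svi-0 at 10 °C, against 179, 230.2 and 244 CPM in Col-0, and at 16 °C 134, 134 and 152 CPM in IP-Svi-0, against 143, 110.3 and 123 CPM in Col-0. For PSAH2 the 23 °C libraries had 80.5, 112 and 142 CPM in IP-Svi-0, against 128, 149 and 102 CPM in Col-0, and the 27 °C libraries 88.5, 80.1 and 117 CPM in IP-Svi-0, against 120.5, 97.6 and 72.7 CPM in Col-0. PSAH2 (AT1G52230) rose at 10 °C in IP-Svi-0 (log2 difference of 1.39 with SE 0.26, adjusted p = 0.000202) and its libraries overlapped between accessions at all 4 temperatures. Counts at PSAL were 1016, 1220.2 and 862 CPM in IP-Svi-0 at 10 °C, against 627, 594 and 637 CPM in Col-0, and at 16 °C 419, 335 and 579 CPM in IP-Svi-0, against 483, 233 and 299.5 CPM in Col-0. For PSAL the 23 °C libraries had 183, 254 and 370.5 CPM in IP-Svi-0, against 382, 374 and 315 CPM in Col-0, and the 27 °C libraries 254, 242 and 313 CPM in IP-Svi-0, against 312, 376 and 293 CPM in Col-0. PSAL (AT4G12800) was higher in IP-Svi-0 at 10 °C, with no overlap (log2 difference of 0.74 with SE 0.27, adjusted p = 0.0455), a call that 10 of 24 fits without 1 library lost. Scaling by DESeq2 size factors (0.73, adjusted p = 0.052) and the overlap-free share as a covariate (0.37, adjusted p = 0.409) also lost it. PSAL rose at 10 °C in IP-Svi-0 relative to 23 °C (log2 difference of 1.94 with SE 0.28, adjusted p = 7.1e-06). PSAO (AT1G08380) ranged from 366 ± 40 CPM in IP-Svi-0 at 27 °C to 1487 ± 272 CPM at 10 °C (SD, n = 3 each). It was higher than in Col-0 at 10 °C (log2 difference of 0.98 with SE 0.27, adjusted p = 0.00733). With the overlap-free share as a covariate this did not pass (0.66, adjusted p = 0.0811), and 1 of 24 fits without 1 library lost the call.

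PSAN (AT5G64040), a lumen subunit that aids the reaction with plastocyanin, was called at 10 °C in both accessions. Counts at PSAN were 482, 590.2 and 485 CPM in IP-Svi-0 at 10 °C, against 350.4, 363 and 356 CPM in Col-0, and at 16 °C 204, 274 and 412 CPM in IP-Svi-0, against 254, 195 and 172 CPM in Col-0. For PSAN the 23 °C libraries had 121, 176 and 149 CPM in IP-Svi-0, against 192, 208 and 209 CPM in Col-0, and the 27 °C libraries 132, 126 and 162 CPM in IP-Svi-0, against 169, 183 and 165 CPM in Col-0. The IP-Svi-0 libraries lay above those of Col-0 at 10 °C and below them at 23 and 27 °C, and none of these differences passed (log2 difference 0.54, adjusted p = 0.102 at 10 °C). The rise at 10 °C was 1.80 in IP-Svi-0 (SE 0.26, adjusted p = 3.79e-06) and 0.81 in Col-0 (SE 0.25, adjusted p = 0.0402). In Col-0 the call was lost without a filter on low counts (0.78, adjusted p = 0.131), with at least 1 CPM in 3 libraries (0.72, adjusted p = 0.167) and without any 1 of 9 libraries. By edgeR the difference between the responses did not pass (0.99, adjusted p = 0.0821). DESeq2 called it (1.03, adjusted p = 0.0179), as did an edgeR fit of only the groups compared (1.06, adjusted p = 0.0349).

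**Figure D4:**
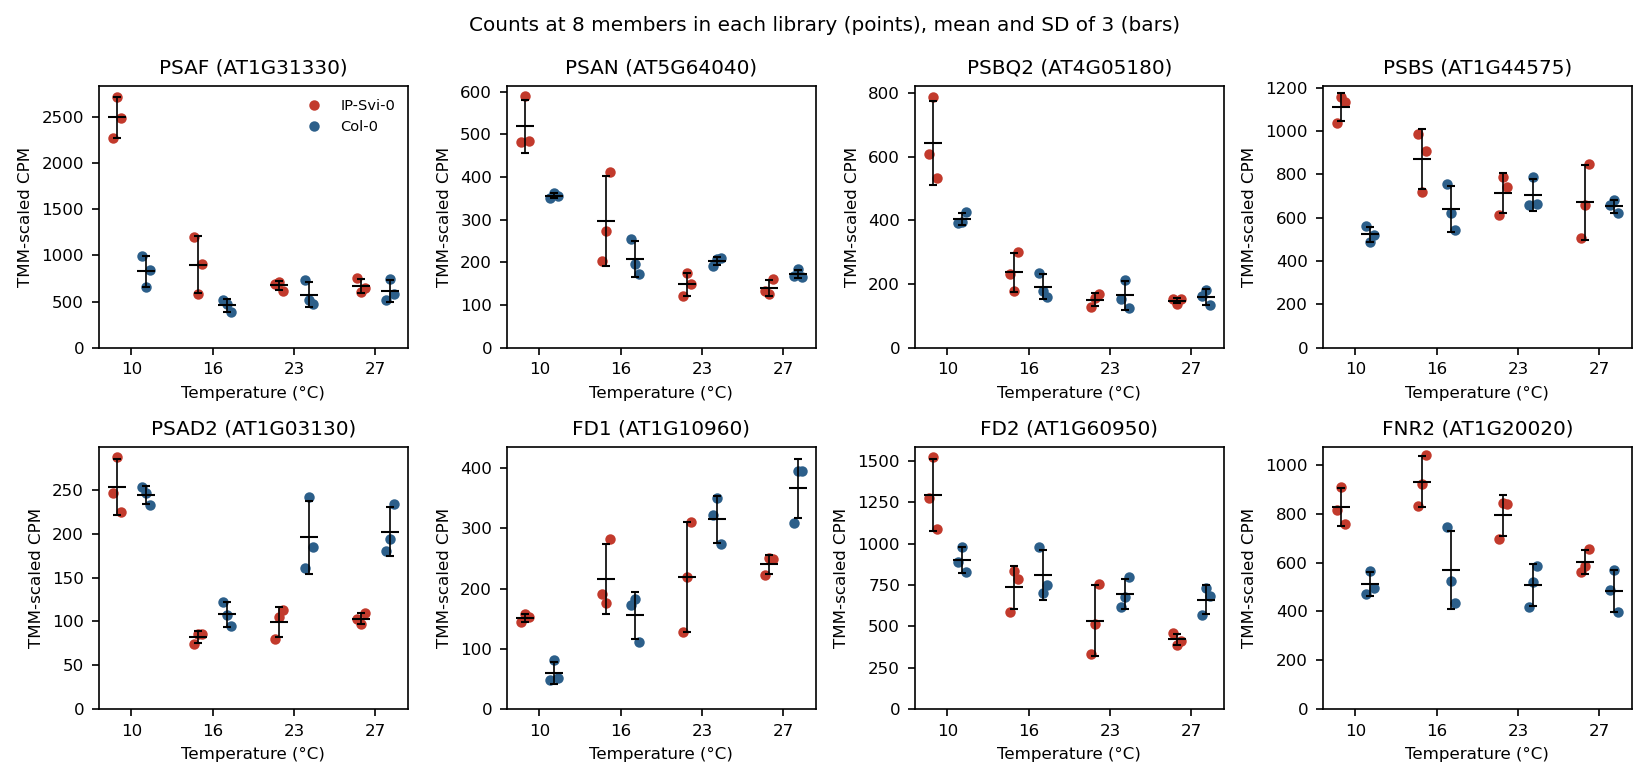
TMM-scaled CPM (vertical axes) of PSAF, PSAN, PSBQ2, PSBS, PSAD2, FD1, FD2 and FNR2 in each library at 4 temperatures (°C, horizontal axes), with IP-Svi-0 left and Col-0 right, and the mean and SD of 3 as black bars. At 10 °C, PSAF had 2279 to 2723 CPM in IP-Svi-0, against 654 to 991 CPM in Col-0, and FD1 had 144 to 157 CPM in IP-Svi-0, against 48.6 to 80.8 CPM in Col-0.

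Among photosystem II subunits, PSBO, PSBP and PSBQ are the extrinsic proteins that shield the manganese cluster where water is oxidised. Counts at PSBO1 were 3871, 4562 and 4002 CPM in IP-Svi-0 at 10 °C, against 2986, 2891 and 3684 CPM in Col-0, and at 16 °C 2942, 2744 and 2755 CPM in IP-Svi-0, against 2661, 1948 and 2079.9 CPM in Col-0. For PSBO1 the 23 °C libraries had 1727, 2074 and 2622 CPM in IP-Svi-0, against 2388, 2305 and 2448 CPM in Col-0, and the 27 °C libraries 1625, 1713 and 1524 CPM in IP-Svi-0, against 1713, 1955 and 1794 CPM in Col-0. PSBO1 (AT5G66570), the copy with more counts, rose at 10 °C in IP-Svi-0 (log2 difference of 0.95 with SE 0.26, adjusted p = 0.00945) and lay above Col-0 at 10 and 16 °C without passing (0.38, adjusted p = 0.294 at 10 °C). Counts at PSBO2 were 930.2, 1023 and 891 CPM in IP-Svi-0 at 10 °C, against 716, 642 and 798 CPM in Col-0, and at 16 °C 702, 832 and 907 CPM in IP-Svi-0, against 791, 621 and 689 CPM in Col-0. For PSBO2 the 23 °C libraries had 492, 686 and 898 CPM in IP-Svi-0, against 728, 813 and 907 CPM in Col-0, and the 27 °C libraries 600.0, 589.7 and 546 CPM in IP-Svi-0, against 658, 768 and 703 CPM in Col-0. PSBO2 (AT3G50820) lay above Col-0 in every IP-Svi-0 library at 10 °C and below it at 27 °C, and was called in none of the 15 comparisons by edgeR or DESeq2. Counts at PSBP1 were 2341, 2831 and 2234 CPM in IP-Svi-0 at 10 °C, against 1459, 1361 and 1672 CPM in Col-0, and at 16 °C 1178, 1259 and 1811 CPM in IP-Svi-0, against 1459, 942 and 1042 CPM in Col-0. For PSBP1 the 23 °C libraries had 738, 1301 and 1433 CPM in IP-Svi-0, against 1369, 1214 and 1256 CPM in Col-0, and the 27 °C libraries 1037, 995 and 990.0 CPM in IP-Svi-0, against 1117, 1310.0 and 1034 CPM in Col-0. PSBP1 (AT1G06680) was higher in IP-Svi-0 at 10 °C, with no overlap between groups (log2 difference of 0.72 with SE 0.27, adjusted p = 0.0492), a call that 15 of 24 fits without 1 library lost. The call was also lost with DESeq2 size factors (0.71, adjusted p = 0.0544) and a block for replicate number (0.72, adjusted p = 0.0511). At least 1 CPM in 3 libraries (0.82, adjusted p = 0.0569) and no filter on low counts (0.79, adjusted p = 0.0744) lost it too. So did the overlap-free share as a covariate (0.55, adjusted p = 0.151). PSBP1 rose at 10 °C in IP-Svi-0 relative to 23 °C (1.09, adjusted p = 0.00506).

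The PSBQ copies are PSBQ1 and PSBQ2. Counts at PSBQ1 were 787, 979.6 and 646 CPM in IP-Svi-0 at 10 °C, against 394, 408 and 437 CPM in Col-0, and at 16 °C 594, 443 and 704 CPM in IP-Svi-0, against 483, 416 and 357 CPM in Col-0. For PSBQ1 the 23 °C libraries had 365, 454 and 515 CPM in IP-Svi-0, against 544, 540.3 and 514 CPM in Col-0, and the 27 °C libraries 429, 373 and 455 CPM in IP-Svi-0, against 492, 541 and 403 CPM in Col-0. PSBQ1 (AT4G21280) was higher in IP-Svi-0 at 10 °C (log2 difference of 0.96 with SE 0.25, adjusted p = 0.00413), rose there relative to 23 °C (0.86, adjusted p = 0.0143) and in Col-0 had lower counts at 10 than at 23 °C without passing (-0.37, adjusted p = 0.435). Counts at PSBQ2 were 608, 789.7 and 534 CPM in IP-Svi-0 at 10 °C, against 391, 396 and 428 CPM in Col-0, and at 16 °C 232, 177 and 301 CPM in IP-Svi-0, against 236, 179.6 and 160.0 CPM in Col-0. For PSBQ2 the 23 °C libraries had 128, 157 and 169 CPM in IP-Svi-0, against 154, 212 and 126 CPM in Col-0, and the 27 °C libraries 153, 138 and 152 CPM in IP-Svi-0, against 162, 182 and 134 CPM in Col-0. PSBQ2 (AT4G05180) was higher in IP-Svi-0 than in Col-0 at 10 °C (log2 difference of 0.67 with SE 0.25, adjusted p = 0.0441). That call was lost without a filter on low counts (0.74, adjusted p = 0.0637) and in a fit of these groups alone (0.69, adjusted p = 0.0512). The overlap-free share as a covariate (0.35, adjusted p = 0.384) and 5 of 24 fits without 1 library also lost it. PSBQ2 rose at 10 °C by 2.09 in IP-Svi-0 (SE 0.26, adjusted p = 3.46e-07), with no library of another temperature reaching those at 10 °C in either accession. Both copies have 2 G-boxes in the windows printed above, and PSBQ2 has an I-box.

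PSBS (AT1G44575, chromosome 1, 16870221 to 16873427, plus strand) senses the pH of the lumen and switches on the dissipation of excess light as heat. Counts at PSBS were 1039, 1157 and 1137 CPM in IP-Svi-0 at 10 °C, against 560.0, 489 and 521 CPM in Col-0, and at 16 °C 987, 721 and 907 CPM in IP-Svi-0, against 758, 621 and 546 CPM in Col-0. For PSBS the 23 °C libraries had 613, 789 and 741 CPM in IP-Svi-0, against 658, 790.3 and 666 CPM in Col-0, and the 27 °C libraries 506, 659.6 and 849.6 CPM in IP-Svi-0, against 657, 681 and 622 CPM in Col-0. At 10 °C all IP-Svi-0 libraries lay above those of Col-0 (log2 difference of 1.08 with SE 0.25, adjusted p = 0.0015), and at the other temperatures they overlapped. Relative to 23 °C, edgeR called neither the higher level in IP-Svi-0 (0.64, adjusted p = 0.0731) nor the lower level in Col-0 (-0.43, adjusted p = 0.347). Their difference did not pass either (1.06, adjusted p = 0.0613). DESeq2 called the rise in IP-Svi-0 (adjusted p = 0.00735), the difference (adjusted p = 0.00256) and any difference in response (adjusted p = 0.00598). In edgeR fits of only the groups compared, the rise (adjusted p = 0.047) and the difference (adjusted p = 0.0289) also passed.

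PSBR (AT1G79040) helps PSBP to assemble and had the highest level per kb. Counts at PSBR were 3262, 3837 and 3377 CPM in IP-Svi-0 at 10 °C, against 2592, 4539 and 3944 CPM in Col-0, and at 16 °C 2657, 2673 and 3496 CPM in IP-Svi-0, against 3329, 3170.4 and 2900.4 CPM in Col-0. For PSBR the 23 °C libraries had 2302, 3437 and 2986 CPM in IP-Svi-0, against 2206, 2493 and 3019.8 CPM in Col-0, and the 27 °C libraries 1924, 1975 and 2104 CPM in IP-Svi-0, against 2500.4, 2634 and 2376 CPM in Col-0. Its libraries overlapped between accessions at 10, 16 and 23 °C, and at 27 °C all IP-Svi-0 libraries lay below those of Col-0. It was called in none of the 15 comparisons by edgeR or DESeq2, and its highest mean lay in Col-0 at 10 °C. Of the low-mass subunits, PSBY (AT1G67740) averaged 1083 ± 53.1 CPM in IP-Svi-0, against 622 ± 123 CPM in Col-0 at 10 °C (n = 3 each, SD), which passed (log2 difference of 0.80 with SE 0.25, adjusted p = 0.0169). PSBW (AT2G30570), PSBX (AT2G06520) and PSBTN (AT3G21055) rose at 10 °C in IP-Svi-0, with log2 differences of 1.33, 1.04 and 0.99 (adjusted p = 0.000303, 0.00672 and 0.00976). Between the accessions at 10 °C these 3 did not pass. Their IP-Svi-0 libraries lay above those of Col-0 there, and no share over all genes is given for such a separation.

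In the chain between the photosystems, PETC (AT4G03280), the Rieske iron-sulfur protein of cytochrome b6f, averaged 845 ± 121 CPM in IP-Svi-0, against 491 ± 33.2 CPM in Col-0 at 10 °C (SD, n = 3 each; log2 difference of 0.78 with SE 0.25, adjusted p = 0.0197). Plastocyanin, the copper protein that carries electrons to photosystem I, is encoded by PETE1 (AT1G76100) and PETE2 (AT1G20340). Counts at PETE1 were 43.8, 70.1 and 81.5 CPM in IP-Svi-0 at 10 °C, against 68.7, 92.9 and 76.7 CPM in Col-0, and at 16 °C 63.5, 64 and 64.7 CPM in IP-Svi-0, against 86.5, 47.3 and 65.6 CPM in Col-0. For PETE1 the 23 °C libraries had 78.3, 66.1 and 91 CPM in IP-Svi-0, against 100.3, 65.9 and 93.7 CPM in Col-0, and the 27 °C libraries 86.5, 81.8 and 61 CPM in IP-Svi-0, against 65.8, 84.4 and 106 CPM in Col-0. PETE1 was the member with the fewest counts, and its libraries overlapped between accessions at every temperature. Counts at PETE2 were 2089.8, 2370.3 and 1822 CPM in IP-Svi-0 at 10 °C, against 1355, 1244 and 1484 CPM in Col-0, and at 16 °C 1788, 1459.8 and 1827 CPM in IP-Svi-0, against 1504, 1103 and 1342 CPM in Col-0. For PETE2 the 23 °C libraries had 875, 1429 and 1761 CPM in IP-Svi-0, against 1324, 1684 and 1656 CPM in Col-0, and the 27 °C libraries 1209.8, 1411 and 1237 CPM in IP-Svi-0, against 1467, 1603 and 1642 CPM in Col-0. PETE2 lay above Col-0 at 10 °C and below it at 27 °C in every library, and neither difference passed (0.62, adjusted p = 0.084 at 10 °C). By edgeR neither copy was called in any of the 15 comparisons. DESeq2 called PETE2 in 4, namely between accessions at 10 °C (adjusted p = 0.0216), between 10 and 23 °C in IP-Svi-0 (adjusted p = 0.02), for the difference of these responses (adjusted p = 0.0309) and for any difference in response (adjusted p = 0.0465).

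Ferredoxin, the iron-sulfur protein that takes electrons from photosystem I, is encoded in leaves by FD2 (AT1G60950, chromosome 1, 22444307 to 22445291, plus strand) and FD1 (AT1G10960, chromosome 1, 3664187 to 3665040, plus strand). Counts at FD2 were 1273, 1521 and 1089 CPM in IP-Svi-0 at 10 °C, against 892, 981 and 828 CPM in Col-0, and at 16 °C 586, 832 and 787 CPM in IP-Svi-0, against 982, 699.6 and 751 CPM in Col-0. For FD2 the 23 °C libraries had 333, 514 and 759 CPM in IP-Svi-0, against 614, 675 and 797 CPM in Col-0, and the 27 °C libraries 458, 390.3 and 414 CPM in IP-Svi-0, against 566, 735 and 683 CPM in Col-0. FD2 rose at 10 °C in IP-Svi-0 (log2 difference of 1.27 with SE 0.27, adjusted p = 0.00106) and lay above Col-0 there without passing (0.53, adjusted p = 0.151). Counts at FD1 were 144, 157 and 153 CPM in IP-Svi-0 at 10 °C, against 48.6, 80.8 and 51.2 CPM in Col-0, and at 16 °C 190.4, 176 and 281 CPM in IP-Svi-0, against 173, 183 and 111 CPM in Col-0. For FD1 the 23 °C libraries had 128, 219 and 311 CPM in IP-Svi-0, against 322, 349.5 and 273 CPM in Col-0, and the 27 °C libraries 222, 250.5 and 248 CPM in IP-Svi-0, against 309, 394 and 394 CPM in Col-0. FD1 ran the other way in Col-0, where every library at 10 °C lay below every library at the other temperatures, and its level at 10 °C was 0.184 times that at 23 °C. In IP-Svi-0 the 10 °C libraries overlapped those at 23 °C, and the lower value did not pass (log2 difference of -0.53 with SE 0.27, adjusted p = 0.193). At 10 °C FD1 was higher in IP-Svi-0 than in Col-0 (log2 difference of 1.38 with SE 0.31, adjusted p = 0.00102), while at 27 °C all IP-Svi-0 libraries lay below those of Col-0 without passing. The difference between the responses held its sign without any 1 library, with a range of 1.66 to 2.31.

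Ferredoxin-NADP reductase, the last enzyme of the chain, is encoded in leaves by FNR1 (AT5G66190) and FNR2 (AT1G20020, chromosome 1, 6942625 to 6945091, plus strand). Counts at FNR1 were 749.8, 819.9 and 724 CPM in IP-Svi-0 at 10 °C, against 599, 796 and 730.2 CPM in Col-0, and at 16 °C 779, 867 and 699 CPM in IP-Svi-0, against 1041, 579.9 and 812 CPM in Col-0. For FNR1 the 23 °C libraries had 691, 725 and 701 CPM in IP-Svi-0, against 735, 755 and 881 CPM in Col-0, and the 27 °C libraries 504, 626 and 651 CPM in IP-Svi-0, against 782, 739 and 659 CPM in Col-0. FNR1, overlapped over 191 bp, lay below Col-0 in every IP-Svi-0 library at 23 and 27 °C and was called in none of the 15 comparisons by edgeR or DESeq2. Counts at FNR2 were 816, 911 and 759 CPM in IP-Svi-0 at 10 °C, against 471, 565 and 498 CPM in Col-0, and at 16 °C 831, 922 and 1040.1 CPM in IP-Svi-0, against 746, 526 and 435 CPM in Col-0. For FNR2 the 23 °C libraries had 698, 845 and 841 CPM in IP-Svi-0, against 418, 520.2 and 588 CPM in Col-0, and the 27 °C libraries 561, 588 and 657 CPM in IP-Svi-0, against 487, 569.9 and 399 CPM in Col-0. FNR2 was above Col-0 in every IP-Svi-0 library at 10, 16 and 23 °C. It passed at 10 °C (log2 difference of 0.70 with SE 0.25, adjusted p = 0.0378) and for the mean over temperatures. The call at 10 °C was lost without a filter on low counts (0.78, adjusted p = 0.0692) and with the overlap-free share as a covariate (0.49, adjusted p = 0.163). It was also lost in 5 of 24 fits that left out 1 library. Between the accessions at 23 °C, FNR2 passed with that covariate (0.69, adjusted p = 0.00717) and with DESeq2 (0.63, adjusted p = 0.0258). DESeq2 also called it at 16 °C (0.68, adjusted p = 0.013). FNR2 did not differ detectably between 10 and 23 °C in IP-Svi-0 (log2 difference 0.06, SE 0.25) or Col-0 (0.01, SE 0.25).

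Of the ATP synthase subunits, ATPC1 (AT4G04640) is the gamma subunit, through which the enzyme is switched by light, ATPD (AT4G09650) the delta subunit and ATPG (AT4G32260) a subunit of the peripheral stalk. ATPG rose at 10 °C in IP-Svi-0 (log2 difference of 0.81 with SE 0.24, adjusted p = 0.0194). ATPD (0.58, adjusted p = 0.0949) and ATPC1 (0.68, adjusted p = 0.0972) did not pass in the main fit. DESeq2 called ATPD (0.60, adjusted p = 0.00843), as did edgeR with the overlap-free share as a covariate (0.57, adjusted p = 0.0365). ATPC1 passed in an edgeR fit of only the groups compared (0.71, adjusted p = 0.0418). At 10 °C, ATPC1 averaged 438 ± 100.1 CPM in IP-Svi-0, against 261 ± 19.9 CPM in Col-0 (n = 3 each, SD), just outside the threshold (log2 difference of 0.75 with SE 0.29, adjusted p = 0.0517). This difference passed with at least 1 CPM in 3 libraries (0.85, adjusted p = 0.0256) and without a filter on low counts (0.82, adjusted p = 0.0399). A fit of only the groups compared also called it (0.77, adjusted p = 0.0304), whereas DESeq2 did not (adjusted p = 0.0572).

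Within each library, the share of a pair's counts at its first copy does not depend on scaling. Copies of a pair share runs of at most 35 identical bases of exon (PSAD), with 32 for PSBO, 31 for PSBQ, 30 for PSAH, 23 for FD, 22 for PSAE and 17 for PETE and FNR, and no source used here gives the read length. The shares are therefore uncertain where reads could not be placed in 1 copy. PSAD1 took 84.8, 84.7 and 86.3% of PSAD counts in IP-Svi-0 at 23 °C, against 77.1, 69.1 and 76.3% in Col-0. Averaged over temperatures the share was 85.5% in IP-Svi-0, against 77.7% in Col-0, a difference of 7.84 percentage points that was positive at 4 of 4 temperatures (adjusted p = 5e-05 over 8 pairs). The raw p of 1.25e-05 is the smallest that this test can give, a 2-sided exact permutation of accession labels within temperatures with 160000 arrangements. For FNR, FNR1 took 47.9, 47.4 and 48.8% in IP-Svi-0 at 10 °C, against 56, 58.5 and 59.5% in Col-0. Over all temperatures its share was 47.6% in IP-Svi-0, against 59.4% in Col-0. The difference of -11.8 points was negative at 4 of 4 temperatures (exact permutation, adjusted p = 5e-05). FNR1 is overlapped on the other strand over 12.7% of its exon bases, so its counts are uncertain. The part of IP-Svi-0 reads lost on the Col-0 genome in the PSAD and FNR shares was not tested.

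In the other 6 pairs the share did not pass between accessions, with adjusted p by the exact permutation test of 0.142 for PSAH and PSBO, 0.194 for FD and 0.27 for PSAE, PSBQ and PETE. Across temperatures, PSBQ1 took 55.5 ± 0.84% of PSBQ counts in IP-Svi-0 at 10 °C, 71.1 ± 0.954% at 16 °C, 74.6 ± 0.655% at 23 °C and 73.9 ± 1.02% at 27 °C (SD, n = 3 each). In Col-0 its share was 50.5 ± 0.272% at 10 °C, 68.7 ± 1.34% at 16 °C, 76.7 ± 4.42% at 23 °C and 75.0 ± 0.236% at 27 °C. In both accessions every 10 °C library lay below every other library. FD1 took 10.6 ± 1.54% of FD counts in IP-Svi-0 at 10 °C, 22.8 ± 4.72% at 16 °C, 28.9 ± 1.11% at 23 °C and 36.4 ± 3.35% at 27 °C. In Col-0 it took 6.2 ± 1.26%, 16.2 ± 4.06%, 31.4 ± 5.05% and 35.6 ± 0.877% in the same order of temperatures, so that in both accessions the share was lowest at 10 °C. These changes of share with temperature are given without a test.

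**Figure D5:**
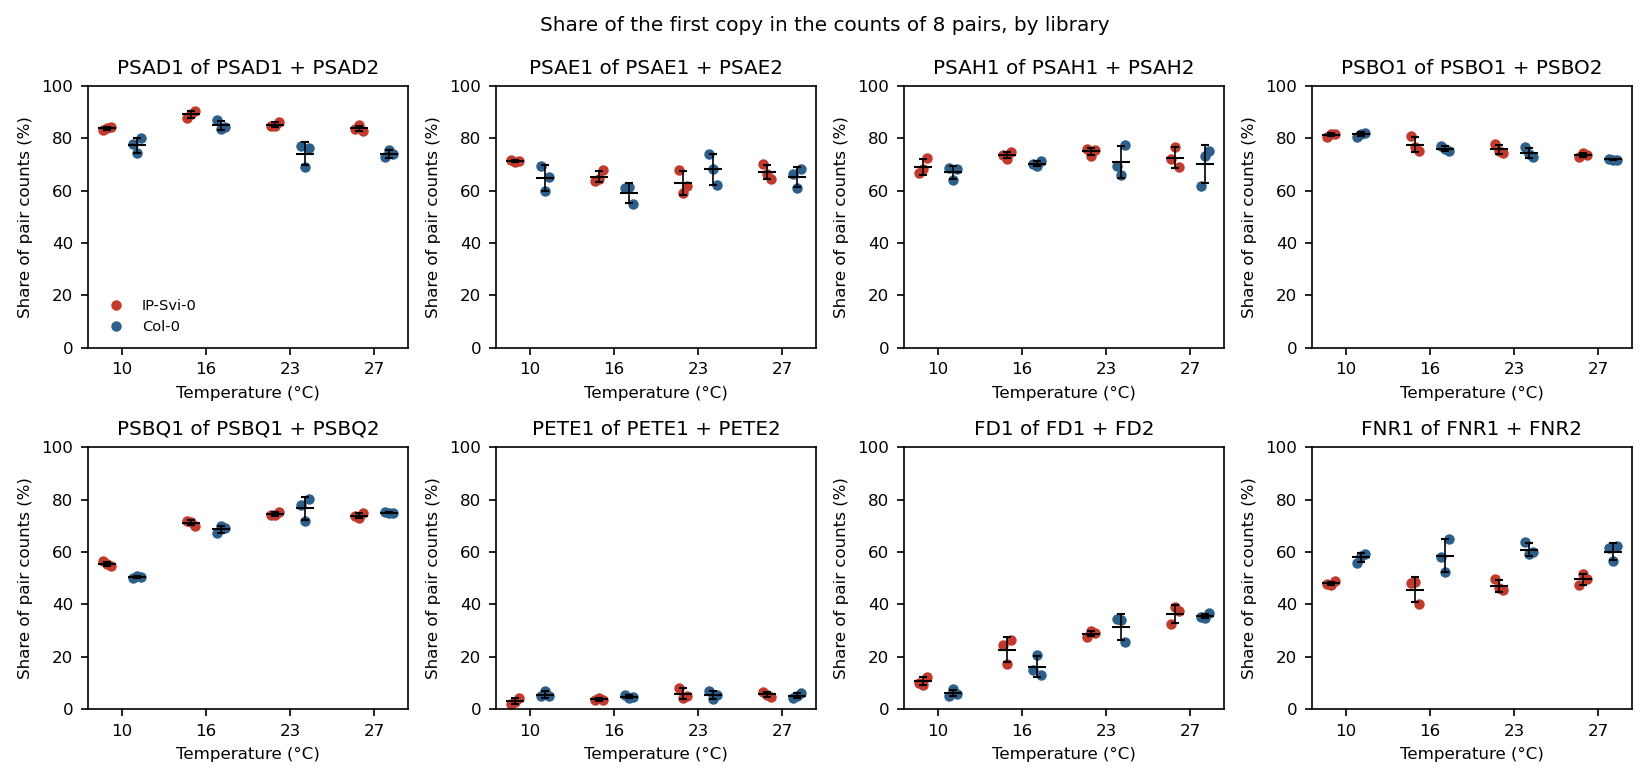
Share of the first copy in the counts of 8 pairs (%, vertical axes) by library at 4 temperatures (°C, horizontal axes), with IP-Svi-0 left and Col-0 right, and the mean and SD of 3 as black bars. The PSAD1 share averaged 85.5% in IP-Svi-0, against 77.7% in Col-0, and the FNR1 share 47.6% in IP-Svi-0, against 59.4% in Col-0.

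Lists of related genes were set beside the members. Of all genes tested, 9.59% were called higher and 14.4% lower in IP-Svi-0 than in Col-0 at 10 °C, with a median of 0.02. Between 10 and 23 °C, 5.77% were higher and 9.98% lower in IP-Svi-0 (median -0.02). In Col-0, 3.83% were higher and 2.85% lower (median -0.01). Of 38 tested genes for other parts of the light reactions, such as assembly factors and NDH subunits, 20 were higher in IP-Svi-0 at 10 °C and 0 lower (median 0.88), with NDHN (1.69, adjusted p = 5.05e-05) and FTSH2 (1.79, adjusted p = 5.35e-05) having the smallest p. Of 20 tested antenna genes, 9 were higher and 0 lower (median 0.65). Between 10 and 23 °C, 18 antenna genes were higher and 0 lower in IP-Svi-0 (median 2.64), and 14 higher and 2 lower in Col-0 (median 1.92). LHCB2.2 was among them in both, with log2 differences of 4.51 in IP-Svi-0, against 3.18 in Col-0. Of 17 tested regulators of photosynthesis genes, 4 were higher in IP-Svi-0 at 10 °C and 0 lower, including GLK1 (1.25, adjusted p = 0.00119), a transcription factor for chloroplast genes, and GUN1 (1.04, adjusted p = 0.00459), a protein of plastid-to-nucleus signalling. Of the 3 root-type ferredoxin and reductase genes, 0 were called at 10 °C. Plastid-encoded subunits were not analysed here.

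Markers of tissues were checked in the same way, beside the same shares of all genes (9.59% higher and 14.4% lower in IP-Svi-0 at 10 °C). All 7 green leaf genes that are not members, among them RBCS2B (1.87, adjusted p = 2.37e-06) and RBCS1A (1.84, adjusted p = 1.35e-05) of Rubisco, were higher in IP-Svi-0 at 10 °C, with a summed level of 32437 to 42786 CPM in IP-Svi-0, against 11638 to 13797 CPM in Col-0. Between 10 and 23 °C, 1 of them was higher in IP-Svi-0 and 4 were lower in Col-0. Of 11 root markers, 6 were tested and 1 was higher in IP-Svi-0 at 10 °C (PRP3, 1.70, adjusted p = 0.0031), and their summed level was 635 to 709.9 CPM in IP-Svi-0, against 565 to 605 CPM in Col-0. Of 10 seed markers, 6 were tested and 2 were lower in IP-Svi-0 at 10 °C (SESA2 and SESA3), with summed levels of 25.2 to 153 CPM in IP-Svi-0, against 105 to 253 CPM in Col-0. CRB and SESA4 had no count in IP-Svi-0 at 10 °C. At 27 °C, 4 of the 6 tested seed markers were higher in IP-Svi-0 and 0 lower, where 2.49% of genes were called higher and 5.56% lower. The summed level of the seed markers there was 667 to 1137 CPM in IP-Svi-0, against 19.8 to 100.3 CPM in Col-0. At 23 °C 0 were higher and 2 lower, and at 16 °C 1 was higher and 0 lower. Of 8 markers of senescing leaves, 3 were tested, NYC1 was higher (1.23, adjusted p = 0.00353) and PAO lower (-1.25, adjusted p = 0.0304), and SAG12 had no count in either accession at 10 °C, with summed levels of 205 to 247 CPM in IP-Svi-0, against 145 to 156 CPM in Col-0. The part of tissue proportions, of unaligned reads and of the overlap-free share in the member differences was not tested beyond the covariate above.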

How the data were processed

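RNA of whole seedlings was sequenced in 24 libraries, 3 for each of 8 groups. Per the submitters' processing notes, the authors used FastQC, HISAT2, HTSeq, Cufflinks and Cuffdiff with the build TAIR10; their versions are not given in the sources used here. Raw read counts of 33602 genes were deposited, and 5 further lines for reads assigned to no gene were left out of library sizes. Those reads included 59.6 to 89.8% of a library that matched no counted gene. Gene positions, overlaps and sequences came from RefSeq's TAIR10.1, in which 32835 IDs were matched.

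Counts were scaled by TMM, filtered by filterByExpr (minimum count 10) to 10097 genes and fitted in edgeR 4.0.16 (R 4.3.3, limma 3.58.1) with 1 mean per group over all 24 libraries. The quasi-likelihood test was adjusted by Benjamini-Hochberg over all genes tested, and genes under 0.05 were called. The SE is the log2 difference over the root of F. CPM were scaled by TMM, and levels between genes were compared per kb of exon. Pair shares were tested in Python 3.11.15. The fit and the permutation test were tested on simulated data. Alternatives were DESeq2 1.42.0, scaling by DESeq2 size factors, a block for replicate number, only the groups compared, other filters, a covariate for the share of nuclear counts that lay at overlap-free genes, and each library left out.

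Members named with a value in every library were the 3 with the smallest adjusted p in each accession comparison at 1 temperature, up to 3 called in each temperature and interaction comparison, those overlapped on the other strand and both copies of pairs. Other members called for the mean over temperatures, and members described by their role, were named with their values seen. Up to 2 called genes of a list in each direction followed the adjusted p. The members and lists were chosen with earlier results of these data known. Depth limits low members most, and PETE1 had as few as 15 counts in a library.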

Additional observations from a re-analysis of the deposited data

Results flagged for a closer look

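For 4 members the response to 10 °C against 23 °C differed between the accessions by a test of the difference itself (edgeR, interaction of accession and temperature). The difference, IP-Svi-0 minus Col-0, was 1.91 on the log2 scale for FD1 (SE 0.41, adjusted p = 0.008), 1.35 for PSAF (SE 0.38, adjusted p = 0.037), 1.22 for PSBQ1 (SE 0.35, adjusted p = 0.037) and 1.16 for PSBY (SE 0.35, adjusted p = 0.0454). Over all genes tested, 1.43% were called positive and 4.02% negative. With the overlap-free share as a covariate, PSAF (adjusted p = 0.246), PSBQ1 (adjusted p = 0.268) and PSBY (adjusted p = 0.115) did not pass. Of 24 fits that left out 1 library, the call was lost in 9 for PSAF, 8 for PSBQ1, 12 for PSBY and 0 for FD1. FD1 counts were lower at 10 °C in Col-0 (-2.44), whereas the value in IP-Svi-0 (-0.53) did not pass.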

How the results depend on the processing

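Over all 33 members and 14 comparisons with a direction, the sign differed from the reported one for 119 of 3201 values under other settings and for 441 of 11088 values with 1 library left out. In 0 of these was the member called in either fit. Apart from fits that left out 1 library, 75 of 103 counts of members stayed within 1.5 times the reported count, 165 of 184 values of named members kept their side of the threshold, and so did 15 of 16 pair shares. With the overlap-free share as a covariate, the accession comparisons called 7 members at 10 °C, 0 at 16 °C, then 2 at 23 °C and 3 at 27 °C. The same fit called 0 members in IP-Svi-0 at 16 °C, 12 in Col-0 at 10 °C, 2 in Col-0 at 16 °C and 1 for the difference in response to 10 °C. DESeq2 called 2 members between accessions at each of 16, 23 and 27 °C, 2 in Col-0 at 16 °C, 16 for the difference in response to 10 °C and 14 for any difference in response. Fits of only the groups compared called 0 between accessions at 16 °C and 2 at 23 °C, for 16 °C 0 in IP-Svi-0 but 1 in Col-0, and 11 for the difference in response to 10 °C. Without a filter on low counts, and with at least 1 CPM in 3 libraries, the count was 0 in IP-Svi-0 at 16 °C, 2 in Col-0 at 10 °C, 1 in Col-0 at 16 °C and 2 for any difference in response. Shares over all genes are not given for these settings. The cause of the shifts was not tested.

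With 1 library left out, the accession comparisons called 5 to 15 members at 10 °C, between 0 and 2 at 16 °C, between 0 and 1 at 23 °C, 1 at 27 °C and 4 to 8 for the mean. IP-Svi-0 had 16 to 25 calls at 10 °C and 0 to 1 at 16 °C, and Col-0 2 to 4 and 0 to 1. The difference in response had 1 to 9 calls at 10 °C and 1 to 3 over all temperatures. Where a group was left with 2 libraries, the spread was pooled over all groups. The PSAH share difference was 1.98 to 3.83 points, and without Col-0 23 °C replicate 3 it passed at 3.83 points.

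The labels do not say that a replicate number marks a shared batch. Over 84 pairs of libraries with the same number, the correlation of deviations was -0.34 to 0.29, with a median of 0.03 against -0.01 for other pairs. It was over 0.1 in 20 pairs, and 13 of 24 libraries correlated best with their own number, a hint of pairing in the data. Since the labels name no shared batch, the main fit had no block, and the number was fitted as a block in an alternative. With the number as a replicate block, PSAN in IP-Svi-0 at 16 °C did not pass (0.99, adjusted p = 0.0552), leaving 0 members called there, and the PSBO1 share passed (1.1 points, adjusted p = 0.0182 by exact permutation). Between accessions at 10 °C, PSBP1 (0.72, adjusted p = 0.0511) and PSBQ2 (0.66, adjusted p = 0.0525) did not pass with the block, leaving 11 members called. The block changed no other call of a member or pair. Depth and 3 libraries per group limit what can be called, and members just outside the threshold are not shown to be equal.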
